A study of Mus musculus with 14 samples.

Results

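Core coding promoters were defined as stretches of chromatin carrying histone H3 trimethylated at lysine 4 (H3K4me3) in every library of Lin−Sca1+cKit+ (LSK) bone marrow cells, each lying at the start of a single protein-coding gene. They were chosen by the peak calls themselves: overlapping or touching peaks of 7 deposited lists were merged into 14659 consensus regions, and a region was kept if all 7 lists called it, if it overlapped the 1 kb on either side of the start of exactly 1 protein-coding gene and of no other gene, and if it was not among the 500 longest regions. This selection kept 2359 of the 14659 regions (16.1%), each at a different gene, which is 11.0% of the 21440 protein-coding genes with a known start. Being called was therefore the criterion of choice and is not a finding, and no test was made of it.

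The study compared LSK cells, the marrow fraction that holds hematopoietic stem cells and early progenitors, between mice on a high-fat diet (HFD) and mice on a low-fat control diet (LFD). Per the study's methods, C57BL/6J males bought at 3 to 4 weeks of age were fed these diets. Congenic and EGFP males on the diets served there as donors in transplantation or transfer experiments. The sample labels name no transgene or deletion in either group. Sorted LSK cells were profiled by cleavage under targets and tagmentation (CUT&Tag), in which an antibody directs a transposase to the mark, although the sample titles name the related method CUT&RUN. There were 3 HFD-LSK and 4 LFD-LSK libraries for H3K4me3, and nothing in the labels says whether a library came from 1 mouse or several, so p-values measure the spread between these libraries.

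H3K4me3 is written by the SET1 and MLL (KMT2) methyltransferase complexes and removed by KDM5 demethylases. It forms a band over the nucleosomes around active or poised transcription starts, most of all where the DNA is rich in CpG, because subunits of the writer complexes bind unmethylated CpG. Genes used by nearly all cells usually carry a compact band, whereas genes that set cell identity often carry a much longer one, and in hematopoietic stem cells the mark also sits at silent lineage genes held poised.

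The lists held 9186, 13094, and 11977 peaks across HFD-LSK replicates 1 to 3 and 7447, 10572, 10352, and 6921 peaks across LFD-LSK replicates 1 to 4. The shortest list was therefore LFD-LSK replicate 4 and the longest was HFD-LSK replicate 2. The number of fragments under each summit was estimated from the fold enrichment and the −log10 p-value of the peak. At core coding promoters the median estimate was 49, 61, and 20 fragments across HFD-LSK replicates 1 to 3 and 52, 41, 23, and 23 across LFD-LSK replicates 1 to 4. Depth at a summit thus varied within both diets, and HFD-LSK replicate 3 was the thinnest library.

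Of the 4395 regions called in all 7 lists, 2531 (57.6%) overlapped exactly 1 coding gene start and no other gene, and 172 of these were among the 500 longest. Another 703 regions covered 2 or more coding starts, as at divergent promoters, and 612 covered 1 coding and at least 1 noncoding start. Only noncoding starts were present in 130 regions and no gene start in 419 (9.53%). The length limit fell between regions of 3068 and 3064 bp, and the longest core coding promoter measured 3062 bp. Just outside the rule on calls lay 1703 coding promoters found in 6 lists. LFD-LSK replicate 4 was the list that lacked 907 of them (53.3%) and LFD-LSK replicate 1 lacked 395 (23.2%), whereas HFD-LSK replicate 2 lacked none. The shorter lists thus set much of the edge of the set, and without LFD-LSK replicate 4 the same rule gave 3266 regions.

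The LSK label was checked against surface markers. Cd34, a sialomucin of early progenitors, was a core coding promoter, and Kit, the stem cell factor receptor, was called in all 7 lists but lay in a region of 6524 bp among the 500 longest. Flt3, a cytokine receptor of multipotent progenitors, was called in 6 lists, and Cd48 and Procr in 3 each. No region was found at Ly6a, which encodes Sca1, or at Slamf1. Of the markers of other cells, none of 6 mature myeloid genes, 4 B lineage genes, 5 T and NK lineage genes, or 5 genes of other tissues had a region at the start, and of 5 erythroid genes 3 had one, none of them in all 7 lists. The longer lists held more: 9 of 22 myeloid genes had a region, among them Cebpa in all 7 lists, Csf3r and Cd14 in 6, and Cebpb in 5, and 8 of 16 erythroid and megakaryocyte genes had one, among them Zfpm1 in all 7 lists and Klf1 and Nfe2 in 6. So did Cd79b, Dntt, and Rag2 of 20 B, T, and NK lineage genes and Cdh1 of 20 genes of other tissues. Kit and Cd34 were thus marked throughout, some myeloid and erythroid genes were marked as well, and the defining marker Ly6a had no region within 1 kb of its start.

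The genes of the core coding promoters were next grouped by function and set beside all coding genes, of which 11.0% had a core promoter and 21.3% a region called in all 7 lists under any of the rules on length and neighbors. These shares are descriptions, since the calls chose the members. In the basic machinery of the cell, a core promoter was present at 15 of 50 genes for translation initiation factor subunits (30.0%), 20 of 84 for cytosolic ribosomal proteins (23.8%), and 11 of 78 for mitochondrial ribosomal proteins (14.1%). It was present at 5 of 13 aminoacyl tRNA synthetase genes with a known start (38.5%), which load amino acids onto tRNA. Among the genes of mitochondrial ribosomal proteins, 26 shared their region with another gene start, and among those of cytosolic ribosomal proteins 20 did so. Part of the housekeeping genes outside the set thus had the mark called but shared the region with a neighbor, and others were called in fewer lists. Ribosomal protein genes have many near-identical processed copies, and how reads shared with these copies were placed is uncertain.

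Core promoters were also present at 11 of 34 proteasome genes (32.4%), 10 of 45 splicing factor genes (22.2%), and 9 of 42 genes for RNA polymerase II and Mediator subunits (21.4%). Psmb2, a β-ring subunit of the proteasome, ranked nearest the top of these proteasome genes. Its rank by fold enrichment among the 4395 regions, where 1 is the highest, was 1110, 654, and 665.5 across HFD-LSK replicates 1 to 3 and 1438, 1031, 437, and 1702 across LFD-LSK replicates 1 to 4. The diets overlapped. Psma5 and Psmd11, a core-ring and a regulatory-lid subunit, followed with mean ranks of 1685 ± 1243 and 1718 ± 906 (SD, n = 7). Among splicing genes the SR protein genes Srsf10 and Srsf1 had mean ranks of 671 ± 400 and 1866 ± 1073 (SD, n = 7), and Snrpa1, a U2 snRNP protein, had 2004 ± 1287 (SD, n = 7). Mediator was represented by Med26 (mean rank 1599 ± 1197) and by the kinase module genes Cdk8 (1612 ± 1153) and Ccnc (2457 ± 1400, SD, n = 7 for each). At Ccnc, HFD-LSK ranks of 2739, 4238, and 4234 were all farther from the top than LFD-LSK ranks of 1008, 853, 1640, and 2488. Ranks of a single promoter thus ranged over much of the list from library to library.

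Cell cycle genes gave 10 of 42 (23.8%). The members were Cdk2, Cdk4, Ccna2, Ccnd1, Ccne1, Cdt1, E2f6, Rbl1, Rbl2, and Rrm1. Cdk4, the kinase partner of D-type cyclins, ranked 522, 697, and 63 across HFD-LSK replicates 1 to 3 and 167, 1118, 80, and 919 across LFD-LSK replicates 1 to 4. It stood in the upper ranks in every library, with overlap between the diets. Rbl1, which encodes the pocket protein p107, and Cdt1, a replication licensing factor, had mean ranks of 1766 ± 1367 and 1818 ± 1142 (SD, n = 7). Another 22 genes of this list were called in 1 to 6 lists, and Cdk6, Cdkn1b, Cdkn2c, and E2f3 lay among the 500 longest regions.

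Metabolic and redox genes were represented as well. Core promoters were found at 9 of 31 genes listed under oxidative stress defense (29.0%). They included Sod1 and Sod2, which remove superoxide, Prdx3 and Prdx6, Gsr, Gclc, the sensor gene Keap1, and Nfe2l2. The remaining member was Ppif, which the list counted although it is not itself a defense gene. Sod1 ranked 1042, 861, and 1779 across HFD-LSK replicates 1 to 3 and 2740, 831, 1276, and 2396 across LFD-LSK replicates 1 to 4, with overlap between the diets. Nfe2l2, the transcription factor of the antioxidant response, and Gclc, a glutathione synthesis gene, had mean ranks of 1821 ± 1409 and 1961 ± 822 (SD, n = 7). Of 27 genes for fatty acid oxidation, 7 were members (25.9%). Among them, Acadl and Acadm, which encode long-chain and medium-chain acyl-CoA dehydrogenases, had mean ranks of 720 ± 323 and 760 ± 923 (SD, n = 7), whereas Hadh was lower at 1673 ± 1175 (SD, n = 7). Acadl kept a rank between 310 and 1152 in the 7 libraries, a narrower range than that of Acadm, which reached 48 and 2498.

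Genes of hematopoietic identity were counted next, beside the 11.0% of all coding genes, in lists too short for the shares to be compared closely. Core promoters were present at 1 of 13 LSK surface genes (Cd34, 7.69%), 2 of 20 stem cell transcription factor genes (Bmi1 and Gata2, 10%), 2 of 22 myeloid genes (Cebpd and Prtn3, 9.09%), and none of 16 erythroid and megakaryocyte genes or of 20 B, T, and NK lineage genes. By contrast, 65.0% of the stem cell transcription factor genes had a region called in all 7 lists, against 21.3% of coding genes. This share was also high for splicing factor genes (55.6%), oxidative stress defense genes (54.8%), and translation initiation factor genes (54.0%). It was 13.6% for myeloid genes and 6.25% for erythroid and megakaryocyte genes. The length rule left out most of the stem cell transcription factor genes called in all 7 lists. Mecom, Tal1, Prdm16, Gfi1, Hoxa9, Etv6, Lyl1, Fli1, Myb, and Meis1, 10 of the 20, lay in regions among the 500 longest. Bmi1, a Polycomb protein needed for stem cell self-renewal, had a mean rank of 1806 ± 869, and Gata2, a transcription factor of stem and progenitor cells, had 3226 ± 700 (SD, n = 7). Gata2 ranked 2790, 2732, and 2243 across HFD-LSK replicates 1 to 3 and 3038, 3894, 3826, and 4058 across LFD-LSK replicates 1 to 4. The diets did not overlap there, with HFD-LSK nearer the top, although the gap between the closest ranks was small (exact permutation p = 0.0571). Its estimated summit fragments did overlap, at 42, 47, and 17 in HFD-LSK and 45, 32, 15, and 16 in LFD-LSK. Cebpd, a transcription factor of the granulocyte lineage, had 2722 ± 1256, and Prtn3, a neutrophil granule protease, had 3124 ± 863 (SD, n = 7). At Prtn3 the mean summit lay 2145 bp into the gene, so this mark was not at the start itself.

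Of 27 genes for Toll-like receptors and their adapters, 4 were members (14.8%), and these were adapters and kinases: Tirap, Ticam2, Tab2, and Map3k7, which encodes the kinase TAK1. Map3k7 ranked 432, 140, and 23.5 across HFD-LSK replicates 1 to 3 and 253.5, 119.5, 1042, and 2666 across LFD-LSK replicates 1 to 4, so that it stood high in 5 libraries and the diets overlapped. Tab2 and Ticam2 had mean ranks of 1773 ± 1190 and 2138 ± 981 (SD, n = 7). No receptor gene was a member: Tlr2 was called in 5 lists and Tlr4 in 3, and Tlr6 shared its region with another gene start. Myd88, the common adapter, lay among the 500 longest regions. Of 23 genes for H3K4 methyltransferases and demethylases, 3 were members, namely Setd1a, a methyltransferase, Cxxc1, a CpG-binding subunit of its complex, and Kdm1a, which removes mono- and dimethylation of H3K4 but not the trimethyl mark, with mean ranks of 1835 ± 959, 2670 ± 1234, and 2506 ± 824 (SD, n = 7).

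At the other extreme, none of 39 Hox cluster genes, none of 940 olfactory receptor genes, and none of 20 genes of other tissues was a member. These lists differed in calls, since 939 olfactory receptor genes had no region at the start. Of the Hox cluster genes, 13 were called in 1 to 6 lists, and Hoxa9 was called in all 7 but lay among the 500 longest regions. Genes named Zfp with a number, mostly zinc finger transcription factors, gave 51 of 367 (13.9%). This large family has near-identical copies, so the placement of shared reads is uncertain. Zfp706, Zfp768, and Zfp46 ranked nearest the top, with mean ranks of 1027 ± 1118, 1183 ± 1324, and 1282 ± 680 (SD, n = 7).

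The core set was then described by rank. The median mean rank was 2355 among the 4395 regions, with quartiles of 1745 and 2894, around the middle of the regions called in all lists. Members made up 53.7% of those regions, so a middle position is not read as a trait of theirs. In the whole list of each library, which also holds regions not called elsewhere, the median member stood at 36.5%, 26.2%, and 39.4% from the top across HFD-LSK replicates 1 to 3 and at 41.2%, 32.3%, 34.0%, and 40.5% across LFD-LSK replicates 1 to 4. The member nearest the top was Rnf122, a RING finger ubiquitin ligase gene at chr8:31111213-31113667 on GRCm38. Its ranks were 100, 107.5, and 1 across HFD-LSK replicates 1 to 3 and 122, 149, 70.5, and 159.5 across LFD-LSK replicates 1 to 4. It was the 1 member in the upper 10% of ranks in every library. Next came Tcp11l2 (mean rank 223 ± 244), Ncoa2, a nuclear receptor coactivator (249 ± 357), Paxbp1 (303 ± 254), Actr2, an ARP2/3 actin nucleator (335 ± 399), and Cd164, a sialomucin of progenitors (340 ± 457, SD, n = 7 for each).

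The member farthest from the top was Bmper, a BMP-binding protein gene at chr9:23222506-23223756. It ranked 3586, 4378, and 4164 across HFD-LSK replicates 1 to 3 and 4330, 3866, 4297, and 4308 across LFD-LSK replicates 1 to 4. Auh, an RNA-binding enoyl-CoA hydratase, followed at 4097 ± 203, then Gprc5c at 4086 ± 337, Traf4 at 4064 ± 318, Psmb7 at 4046 ± 418, and Ergic1 at 4035 ± 432 (mean rank, SD, n = 7). These promoters stood low in every library, although 239 members in all lay in the lower 50% of ranks in every library and 105 in the upper 50%.

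Most ranks were not fixed, and 1 library stood apart in rank. For 1864 members (79.0%) the best and worst of the 7 ranks differed by over 2000, and the median SD of a member's rank was 993. Without HFD-LSK replicate 3 the share was 63.2% and the median SD 889, whereas leaving out any other library gave 71.7% to 75.8%. Between pairs of libraries, Spearman's rho of the ranks over the 2359 members had a median of 0.319 over 21 pairs. The 6 pairs with HFD-LSK replicate 3 lay between 0.0487 and 0.0669, and the other 15 pairs between 0.265 and 0.620 with a median of 0.412. The median was 0.333 over 9 pairs of the same diet and 0.307 over 12 pairs of different diets. These are descriptions across regions that share library and depth. They show a partly shared order of fold in 6 libraries, within as well as between diets, and almost none of it in HFD-LSK replicate 3. The order of widths was shared by that library too. Its rho of widths was 0.605 and 0.613 with HFD-LSK replicates 1 and 2 and 0.332 to 0.553 with the LFD-LSK libraries. Over all 21 pairs this rho ran from 0.329 to 0.729.

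Summits lay just downstream of the gene start. The median signed distance of the summit from the start, positive in the direction of transcription, was 221, 222, and 227 bp across HFD-LSK replicates 1 to 3 and 219, 228, 221, and 191 bp across LFD-LSK replicates 1 to 4. The share of members with a summit upstream was 13.8%, 14.2%, and 18.02% in the HFD-LSK lists and 15.2%, 15.2%, 19.5%, and 20.6% in the LFD-LSK lists. Over the 7 lists 2063 members (87.5%) had a mean summit downstream, and 1038 (44.0%) had it between 0 and 250 bp. Members on the plus and minus strands had medians of 210 and 224 bp. The summit thus lay on the transcribed side of the start on both strands. Coding promoters called in 6 lists and in 1 to 3 lists had medians of 222 and 231 bp, so this position was shared with promoters outside the core set.

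Summit positions were then compared between libraries. The SD of the offset over the 7 lists had a median of 124 bp, with quartiles of 89.0 and 176 bp, and the median distance between the summits of a pair of libraries ranged from 88 to 149 bp. It was tightest at Rbx1, a RING subunit of cullin ubiquitin ligases at chr15:81465935-81467239. There the summit lay 287, 287, and 285 bp downstream across HFD-LSK replicates 1 to 3 and 286, 285, 287, and 286 bp across LFD-LSK replicates 1 to 4, although its rank ran from 521.5 to 3706. Zbtb41 (254 ± 1.40 bp) and Psmd7, a proteasome lid subunit (239 ± 2.07 bp, SD, n = 7), were nearly as fixed. At these promoters all 7 libraries placed the summit within a few bases.

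At other members the summit lay at widely different positions from library to library. At Yod1, a deubiquitinase gene, the summit lay at −1520, 159, and 209 bp across HFD-LSK replicates 1 to 3 and at −1520, 209, −1362, and −1524 bp across LFD-LSK replicates 1 to 4. It switched between a position upstream of the start and one just downstream, in both diets. H13, a signal peptide peptidase, and Zbtb10 also had widely spread summits (793 ± 857 and 426 ± 849 bp, SD, n = 7). In all, 122 members had an SD under 50 bp and 159 an SD of at least 300 bp.

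A minority of summits lay far from the start used here, which is the outer end of the RefSeq gene. The mean summit was farthest upstream at Plxdc1, at −2017 ± 203 bp, then Zfp52 (−1331 ± 82.3 bp) and Ap3m2 (−1147 ± 110 bp, SD, n = 7). It was farthest downstream at Septin11, a cytoskeletal GTPase gene, at 2407 ± 326 bp, then Tldc2 (2286 ± 390 bp) and Zmynd11, a chromatin reader gene (2161 ± 120 bp, SD, n = 7). At Septin11 and Zmynd11 another start in the RefSeq promoter table lay near the summit, with the mean summit at −14.1 and −43.4 bp from it. At Tldc2 and Zfp52 it did not, with the mean summit at −8097 and −3145 bp from the listed start. It did at Eprs, a tRNA synthetase gene whose mean summit was 1666 bp from the outer start and 38.6 bp from the listed one. Of the 140 members with a mean summit over 1000 bp downstream, 115 had a start in that table, and for 88 of the 115 the mean summit lay within 500 bp of it. Among the 1883 members in the table, the median offset was 212 bp from the outer start and 133 bp from the nearest listed start. The outer end of a gene was thus not the nearest start for many of the outlying summits.

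Width was taken as the number of bases a list called inside a region. The median member was 999, 1549, and 1007 bp wide across HFD-LSK replicates 1 to 3 and 818, 1175, 1010, and 610 bp across LFD-LSK replicates 1 to 4. Peaks of the same lists that lay elsewhere had medians of 816, 1102, and 701 bp and 704, 893, 753, and 488 bp. Members were thus wider than the other peaks of every list, a difference the selection itself favors, and the widest and narrowest libraries were also the longest and shortest lists. The merged regions had a median of 1622 bp, with quartiles of 1309 and 2036 bp, against 1198 bp over all consensus regions, 1398 bp for coding promoters called in 6 lists, and 672.5 bp for those called in 1 to 3. The longest members were Fryl, Tpra1, and Cited2 (3062, 3061, and 3060 bp). Cited2, a CBP and p300 coregulator needed for stem cell maintenance, was called over 2790, 3060, and 2178 bp across HFD-LSK replicates 1 to 3 and over 2434, 2590, 2303, and 751 bp across LFD-LSK replicates 1 to 4. The shortest were Hdac11, a histone deacetylase gene (501 bp), Prdx3, a mitochondrial peroxiredoxin gene (575 bp), and Zfp2 (588 bp).

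Wide members tended to rank high. Within a list, Spearman's rho between width and fold enrichment over the 2359 members was 0.563, 0.344, and 0.344 across HFD-LSK replicates 1 to 3 and 0.556, 0.473, 0.506, and 0.398 across LFD-LSK replicates 1 to 4, as a description of values from 1 peak call. The 126 members with a mean rank of up to 1000 had a median region length of 1988 bp and the 488 with a mean rank over 3000 had 1344 bp. Their median summits lay 122 and 246 bp downstream. Members near the top were thus longer and had a smaller median signed distance of the summit from the start.

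The diets were compared next, over libraries. Median width was 1185 ± 315 bp over the HFD-LSK libraries and 903 ± 244 bp over the LFD-LSK libraries (SD, n = 3 and 4), a difference of 282 bp (exact permutation test over 35 assignments, two-sided, p = 0.257, adjusted p = 0.514 over 4 measures). Without HFD-LSK replicate 2 the difference was 97.3 bp. The share of a list's peaks that lay in members was 25.9%, 18.1%, and 20.8% across HFD-LSK replicates 1 to 3 and 32.1%, 22.7%, 23.6%, and 35.5% across LFD-LSK replicates 1 to 4. Because every member is called in every list by the rule, this share follows from the length of the list, and no difference between the diets is read from it. The median list percentile was 34.0 ± 6.91% and 37.0 ± 4.53% (exact permutation p = 0.543, adjusted p = 0.629) and the median summit offset 223 ± 3.22 and 215 ± 16.3 bp (SD, n = 3 and 4, exact permutation p = 0.629, adjusted p = 0.629). None of width, percentile, and offset differed between the diets beyond the spread of the libraries. The share was the remaining measure in the adjustment.

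For single promoters the ranks of the 2 diets were set against each other. The HFD-LSK ranks lay nearer the top than all LFD-LSK ranks at 65 core coding promoters (2.76%), against 2.66% of all 4395 regions, and farther from the top at 60 (2.54%), against 2.39% of all regions. Both shares were close to the background, so the core set as a whole did not stand apart. An exact permutation test of the mean rank over 35 assignments, two-sided, gave p under 0.05 at 68 members and at 115 of all regions, with a smallest p of 0.0286, the smallest the design allows. After Benjamini-Hochberg adjustment over the 4395 regions the smallest value was 0.949, and 0 regions passed 0.05. With only 35 assignments, a region could hardly pass after adjustment over so many, so this does not show that the diets are alike. The promoters described next were picked for their separation, so their direction is a description.

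Among members nearer the top in HFD-LSK, the difference was greatest at Fzd7, a Wnt receptor gene at chr1:59481224-59483948. It ranked 1768, 808.5, and 750.5 across HFD-LSK replicates 1 to 3 and 2856, 2448, 4151, and 3702 across LFD-LSK replicates 1 to 4 (exact permutation p = 0.0286). Every HFD-LSK rank was ahead of every LFD-LSK rank, with a difference in mean rank of −2180 places. Hnrnpm, an RNA-binding splicing regulator, ranked 3000, 2114, and 424.5 in HFD-LSK and 3949, 4160, 3588, and 4075 in LFD-LSK. Garre1, a RAC1 effector gene, ranked 3000, 1962, and 702.5 in HFD-LSK and 3215, 4124, 4286, and 3898 in LFD-LSK. At Fzd7, Hnrnpm, and Garre1 the best HFD-LSK rank was that of replicate 3, the library that stood apart in rank. The gap to the nearest LFD-LSK rank was small at Garre1. Without that library the differences in mean rank were −2090, −1465, and −1481. Estimated summit fragments, uncertain for a single promoter, overlapped between the diets at all of these. At Fzd7 they were 52, 73, and 28 in HFD-LSK and 48, 51, 22, and 20 in LFD-LSK. They were 40, 54, and 18 against 36, 34, 17, and 15 at Hnrnpm, and 40, 59, and 21 against 45, 35, 11, and 16 at Garre1.

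Among members farther from the top in HFD-LSK, the difference was greatest at Calu, a calcium-binding protein of the secretory pathway. It ranked 4324, 4075, and 4329 across HFD-LSK replicates 1 to 3 and 754.5, 1378, 251.5, and 3168 across LFD-LSK replicates 1 to 4. The mean ranks differed by 2855 places, and the LFD-LSK libraries were widely spread (exact permutation p = 0.0571). Prpf38b, a splicing factor gene, ranked 3039, 1991, and 4072 in HFD-LSK and 524.5, 270, 578.5, and 672.5 in LFD-LSK (exact permutation p = 0.0286). Slc25a36, a mitochondrial pyrimidine nucleotide carrier gene, ranked 3934, 4225, and 3638 in HFD-LSK and 1438, 638, 2936, and 1087 in LFD-LSK. Nfx1, a zinc finger transcription factor gene, ranked 3806, 1810, and 4002 in HFD-LSK and 1348, 925, 534.5, and 701.5 in LFD-LSK. Prpf38b was the one of these whose LFD-LSK ranks were tightest. Fold is a ratio to local background, so a rank far from the top need not mean few fragments at the summit. At Prpf38b the estimated fragments were 81, 79, and 24 in HFD-LSK and 76, 66, 32, and 30 in LFD-LSK. The diets overlapped in these estimates, which are uncertain for a single promoter. Each was above that library's median over core coding promoters. Replicate 3 held the worst HFD-LSK rank at Calu, Prpf38b, and Nfx1, and without it the differences in mean rank were 2961, 2063, and 2005. Estimated summit fragments also overlapped between the diets at Calu (45, 72, and 19 in HFD-LSK and 73, 43, 36, and 19 in LFD-LSK). They overlapped as well at Slc25a36 (61, 60, and 17 against 60, 52, 19, and 27) and at Nfx1 (65, 64, and 8 against 61, 48, 32, and 32).

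Promoter DNA was read from the RefSeq promoter table of GRCm38.p6, which gives 250 bases before to 50 bases after a start, and 1883 of the 2359 members (79.8%) were in it. Because this is under 80%, the composition below describes the matched members only. Their windows held a median of 25 CpG (quartiles 18 and 32), against 22 for promoters called in 6 lists, 17 for those called in 1 to 3 lists, 4 for coding genes with no region at the start, and 13 over all 17492 coding promoters in the table. At least 10 CpG were present in 93.7% of the matched members and in 57.2% of all coding promoters, and median GC content was 64.0% and 56.3%. The matched members were thus CpG-rich as a group. The median also declined down the ranks, from 28 CpG in 101 members with a mean rank of up to 1000 to 22 in 380 with a mean rank over 3000.

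Short motifs were searched on both strands, as exact letters. GGGCGG, the GC box of the SP1 family, was present in 76.6% of the matched members and 46.3% of all coding promoters, and its letters overlap those of the E2F motif TTCCCGCC (5.10% and 2.94%). CCGGAAG, an ETS motif, was present in 18.5% and 11.9%, GCGCATGCG, an NRF1 motif, in 5.58% and 2.41%, ATGGCGGC, a YY1 motif, in 5.84% and 3.21%, and CTCGCGAG in 2.71% and 1.31%. CACGTG, an E-box, was present in 10.7% and 7.91% and TGACGTCA, the cyclic AMP response element, in 2.97% and 2.33%. CCAAT, the NFY motif, was present in 37.3% and 39.2%, and TATAAA, the TATA box, was present in 5.15% and 13.3%. In promoters called in 6 lists the shares were 70.3% for the GC box, 20.1% for the ETS motif, 3.33% for NRF1, 5.51% for YY1, 1.52% for CTCGCGAG, 4.57% for E2F, 11.2% for the E-box, and 4.64% for the cyclic AMP response element, with 38.6% for CCAAT and 6.09% for the TATA box. These shares were not tested. A match describes letters only, not binding.

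Windows of 6 members are given from RefSeq, each 5′ to 3′ on the strand of its gene, in lower case with motif matches in capitals. They show a promoter near the top (Paxbp1), the one farthest from the top (Bmper), the one with the tightest summit (Rbx1), the LSK marker gene (Cd34), and 2 with diets that did not overlap in rank (Hnrnpm and Prpf38b). Paxbp1 lies on the minus strand at chr16:91044330-91044629 and held 34 CpG, and Bmper on the plus strand at chr9:23222826-23223125 held 31. Rbx1 lies on the plus strand at chr15:81466066-81466365 with 29 CpG, and Cd34 on the plus strand at chr1:194938571-194938870 with 7. Hnrnpm lies on the minus strand at chr17:33685409-33685708 with 27 CpG and Prpf38b on the minus strand at chr3:108911680-108911979 with 21.
Paxbp1: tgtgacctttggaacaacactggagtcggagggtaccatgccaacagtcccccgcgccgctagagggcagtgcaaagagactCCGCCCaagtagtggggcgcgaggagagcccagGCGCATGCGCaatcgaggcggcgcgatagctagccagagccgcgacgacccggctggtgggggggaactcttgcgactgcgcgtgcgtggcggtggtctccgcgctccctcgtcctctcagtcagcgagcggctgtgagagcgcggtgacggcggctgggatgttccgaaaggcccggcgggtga
Bmper: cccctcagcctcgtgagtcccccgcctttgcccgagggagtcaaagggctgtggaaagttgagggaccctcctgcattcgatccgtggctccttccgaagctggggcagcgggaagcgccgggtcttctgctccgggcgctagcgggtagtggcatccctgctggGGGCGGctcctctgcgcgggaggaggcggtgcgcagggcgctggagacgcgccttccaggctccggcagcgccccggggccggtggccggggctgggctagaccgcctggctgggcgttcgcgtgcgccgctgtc
Rbx1: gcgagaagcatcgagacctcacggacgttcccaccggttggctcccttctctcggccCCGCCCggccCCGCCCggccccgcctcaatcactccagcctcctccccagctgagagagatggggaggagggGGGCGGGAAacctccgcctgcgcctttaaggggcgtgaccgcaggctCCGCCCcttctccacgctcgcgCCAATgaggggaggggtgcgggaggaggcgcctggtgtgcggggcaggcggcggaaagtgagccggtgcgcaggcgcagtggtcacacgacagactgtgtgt
Cd34: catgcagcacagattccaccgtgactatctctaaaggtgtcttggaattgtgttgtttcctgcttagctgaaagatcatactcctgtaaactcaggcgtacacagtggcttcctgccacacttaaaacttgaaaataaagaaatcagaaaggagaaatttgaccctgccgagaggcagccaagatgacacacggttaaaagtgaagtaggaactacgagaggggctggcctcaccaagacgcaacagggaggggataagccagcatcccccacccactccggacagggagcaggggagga
Hnrnpm: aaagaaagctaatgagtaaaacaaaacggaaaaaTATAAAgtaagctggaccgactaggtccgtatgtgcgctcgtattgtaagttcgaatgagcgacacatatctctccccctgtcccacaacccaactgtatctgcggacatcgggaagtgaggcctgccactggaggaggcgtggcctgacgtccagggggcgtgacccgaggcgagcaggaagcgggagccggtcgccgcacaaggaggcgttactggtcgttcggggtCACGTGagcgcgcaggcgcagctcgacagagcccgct
Prpf38b: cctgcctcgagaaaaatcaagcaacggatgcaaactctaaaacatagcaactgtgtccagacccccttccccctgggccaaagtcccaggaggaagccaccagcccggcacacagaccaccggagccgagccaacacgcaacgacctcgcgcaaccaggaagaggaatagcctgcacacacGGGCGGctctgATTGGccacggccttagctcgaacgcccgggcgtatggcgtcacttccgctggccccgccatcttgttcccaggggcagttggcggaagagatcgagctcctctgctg

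Paxbp1 held overlapping NRF1 letters starting 135 bases before the start and Rbx1 held GC boxes, a CCAAT box, and an E2F motif, whereas Cd34 held none of the 10 motifs. The CpG count of Cd34 was low among members, although it was called in all 7 lists. Its ranks were 1136, 978.5, and 1218 across HFD-LSK replicates 1 to 3 and 1788, 477.5, 954.5, and 792 across LFD-LSK replicates 1 to 4, with the summit 140 to 198 bp downstream. Cd34 was thus in the upper ranks in every library without a CpG-rich start.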

How the data were processed

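H3K4me3 CUT&Tag lists of 7 LSK libraries were analyzed, and the 7 IgG libraries were not analysed here. According to the submitters' processing notes, the authors used Trim Galore, Bowtie2, Picard, MACS2, bedtools, HOMER, and featureCounts with GRCm38, whereas the study's methods name another caller and build. Each list holds peaks of 1 library. The fold enrichment deposited with every peak is a ratio of summit signal to local background. They also deposited a −log10 p-value and q-value, and a score made from the −log10 p. Peak positions and the summit offset are other deposited columns. The smallest −log10 p was 5.01. Fold depends on its own library, so only ranks were compared.

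Gene positions came from RefSeq GRCm38.p6. Strands came from its promoter table or, by symbol, from GENCODE, and 98.0% of coding genes and 90.5% of all genes had a start. Summit fragments were estimated by solving fold and −log10 p for whole fragments, using a Poisson model with a pseudocount of 1 and 1 scale per library. The fitted scale solved 100% of peaks in each list within 0.02 of a whole number, against 11.8% to 22.5% of a sample at a scale 5% larger. Single estimates are uncertain. Analyses used Python 3.11.15, numpy 2.4.6, pandas 2.3.3, and scipy 1.17.1, and were tested on simulated data. Groups were compared by exact two-sided permutation tests over libraries with Benjamini-Hochberg adjustment. Alternatives varied the threshold, list length, merging, overlap, window, barring genes, rank measure, and libraries.

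Named genes were those at the extremes of rank, length, summit spread, and summit position, those with the greatest difference in mean rank among members whose diets did not overlap, and the 3 of each gene list nearest the top, with others named for why they were not members. Some genes that these rules pick are not reported here. Members and lists were chosen with earlier results of these data known.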

Additional observations from a re-analysis of the deposited data

Results flagged for a closer look

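At each of 10 named promoters, 1 of the 4 LFD-LSK libraries stood far from the other 3 in rank, and it was not the same library throughout. The gap to the nearest library, divided by the whole range, was above Dixon's 95% limit for 4 values. For LFD-LSK replicate 2 the ranks were 1052 at Ncoa2, 1227 at Cd164, 3866 at Psmb7, 3802 at Auh, 3866 at Bmper, and 2367 at Rbx1. For LFD-LSK replicate 4 they were 2826 at Tpra1 and 792 at Zfp2, for LFD-LSK replicate 1 2922 at Cdk8, and for LFD-LSK replicate 3 1276 at Acadm. In all, 86 groups of 4 values were examined, of which chance flags about 1 in 20 if values are unselected and normally distributed. Many of these promoters were picked by the same ranks, so the number flagged is not read as an excess. Of the per-library medians and shares, none was above that limit.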

How the results depend on the processing

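The number of core coding promoters, 2359, stayed within 1.5 times of that value except under stricter calling or when a call in at least 6 lists was enough. It was 1284 with a −log10 q of at least 5, 964 with the same number of peaks in each list, and 355 when calls had to cover at least 50% of the region. Under an alternative chosen after seeing the data, called in at least 6 lists, it was 4062. Members nearer and farther in HFD-LSK were 38 and 34, 24 and 23, and 7 and 14 in those first 3 settings, as fewer regions were ranked, against 2.92% and 2.51%, 2.57% and 2.41%, and 1.94% and 2.90% of all regions. With ranks in the whole list the counts were 85 and 35, against 3.69% and 1.502% of all regions, and with ranks by −log10 p they were 52 and 74, against 2.25% and 2.94%, so the balance between the directions depended on the ranking. Leaving out each library in turn gave 125 to 222 nearer (4.43% to 8.71% of all regions) and 102 to 180 farther (3.92% to 7.56%), since fewer libraries separate more easily by chance.

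The replicate numbers were not treated as pairs: deviations of same-numbered libraries correlated at 0.159, −0.00381, and 0.0547. The first of these was the highest value between the diets. Replicate 1 of HFD-LSK and replicate 1 of LFD-LSK also had the highest rho of ranks, 0.620. The study's methods say that its differential analysis took batch and paired samples into account, but the sample titles name no pairs. With the replicate numbers as a paired block the counts were 339 nearer and 290 farther, against 14.0% and 12.3% of all regions.

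The difference in median list percentile, HFD-LSK minus LFD-LSK, was −2.98 in the analysis reported, but was 2.82 with the same number of peaks in each list and 1.13 with the 50% overlap. It ranged from −5.80 to 0.497 when 1 library was left out, the highest without HFD-LSK replicate 2. The difference in summit offset was −1.08 bp with the 50% overlap. The cause was not tested. The other alternatives kept the direction of the 4 per-library differences. The share of a list in members is not read here, as it follows from list length by construction, and for the other 3 the lowest unadjusted exact p was 0.143. Against the nearest start in the RefSeq promoter table, an alternative added after seeing the data, the offset difference was 17.6 bp.

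The differences in mean rank of the promoters picked for their separation kept their direction wherever they could be computed. Without LFD-LSK replicate 4, with 5949 regions ranked, that of Calu was 4788. With a −log10 q of at least 5, with 2466 regions ranked, those of Nfx1, Slc25a36, and Prpf38b were 1317, 1219, and 1490, and Fzd7, Hnrnpm, Garre1, and Calu had no region of their own called in every list. None of the 7 had one with the same number of peaks in each list or with the 50% overlap.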

Other observations

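Core coding promoters were spread over the autosomes, at 16.6% of coding genes with a known start on chromosome 18 and 6.8% on chromosome 7. The sex chromosomes had few, 24 of 955 genes on X (2.51%) and 0 of 253 on Y. Among matched members, 41 had fewer than 5 CpG in the promoter window. At some of them the listed start lay far from the gene start, as at Ncoa6 (33128 bp) and Sema4d (36995 bp). The window there does not describe the called region. Those with the window at the gene start included Laptm4a, a lysosomal membrane protein gene with 1 CpG and a mean rank of 1479, and Tmem176a with 2 CpG and a mean rank of 2243. All of these genes were named after their values were seen. The whole promoter window lay inside the called region at 1534 of 1883 matched members (81.5%), and at 41 it did not touch the region. Of the promoters covering exactly 2 coding genes in all 7 lists, 617 were not among the 500 longest, and their median length was 1814 bp.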
